A study of Mus musculus with 15 samples.

Results

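9 genes of fatty acid handling were followed in the ileum of mice gavaged with proanthocyanidins (PAC), the polyphenol polymers of grape. They were Fabp1, Fabp2, Cd36, Slc27a4, Acsl5, Ppara, Cpt1a, Pdk4 and Acaa2, chosen by symbol for their roles in the uptake and oxidation of fatty acids and as targets of the receptor PPARα, and they are 9 of the 17752 genes listed in any of the 15 libraries. All 9 had enough reads to be tested, among 14386 genes in all. The study used female C57BL/6 mice (C57BL/6JOlaHsd in the methods of the paper) of 8 weeks, as the labels give their age, in 3 groups of 5. The control group received water alone, and the others received a grape-derived PAC fraction with a low or a medium mean degree of polymerization (mDP), at 200 mg/kg every 2 days over 10 days. All mice were fed the same purified control diet. In the labels the fraction of medium mDP is called high molecular weight PAC, and it is named medium mDP PAC here, as in the paper. Each library was made from the RNA of 1 mouse, and the labels name the tissue only as intestinal tissue.

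Long-chain fatty acids enter the absorptive cells of the small intestine (enterocytes) through proteins of the apical membrane, are held in the cytosol by fatty acid binding proteins and are joined to coenzyme A by acyl-CoA synthetases. The acyl-CoA is then either built into triglyceride for export in chylomicrons or passed through the carnitine shuttle into mitochondria, where beta oxidation shortens it step by step. PPARα, a nuclear receptor that binds fatty acids and pairs with RXR on DNA, drives many genes of this oxidation, among them Cpt1a, Pdk4 and Fabp1.

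The promoters of Fabp1, Pdk4 and Cpt1a are shown because the levels of Pdk4 followed those of the other two across the mice, as described further on. They were taken from RefSeq (GRCm38.p6), which was matched by symbol for 8 of the 9 genes (not Acaa2), and run 5′ to 3′ on the strand of the gene from 250 bases before its start to 50 bases after. The Fabp1 window is chr6:71199629-71199928 on the plus strand, that of Pdk4 is chr6:5496229-5496528 on the minus strand, and that of Cpt1a is chr19:3323051-3323350 on the plus strand. The starts are those of RefSeq. GENCODE begins each of these genes elsewhere, and for Cpt1a the whole window lies inside the GENCODE gene (which begins at 3322334), so that positions below count from the RefSeq start. Capitals mark every match, on either strand, to AGGTCA, the single recognition site of this receptor family, and to AGGNCANAGGNCA, a loose form of the direct repeat with 1 base between that PPARα and RXR bind. All matches here lie on the strand opposite to the gene, so that they appear as TGACCT.
Fabp1: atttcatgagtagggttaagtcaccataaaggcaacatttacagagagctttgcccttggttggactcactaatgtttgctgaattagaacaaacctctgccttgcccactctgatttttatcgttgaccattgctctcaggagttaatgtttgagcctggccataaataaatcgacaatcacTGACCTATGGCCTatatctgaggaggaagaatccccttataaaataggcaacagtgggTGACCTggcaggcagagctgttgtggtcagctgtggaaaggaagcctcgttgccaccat
Pdk4: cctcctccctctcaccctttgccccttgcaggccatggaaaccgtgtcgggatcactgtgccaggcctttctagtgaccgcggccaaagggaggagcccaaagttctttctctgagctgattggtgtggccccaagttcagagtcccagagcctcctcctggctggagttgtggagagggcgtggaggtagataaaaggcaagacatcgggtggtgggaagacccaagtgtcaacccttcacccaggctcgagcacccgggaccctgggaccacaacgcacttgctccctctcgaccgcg
Cpt1a: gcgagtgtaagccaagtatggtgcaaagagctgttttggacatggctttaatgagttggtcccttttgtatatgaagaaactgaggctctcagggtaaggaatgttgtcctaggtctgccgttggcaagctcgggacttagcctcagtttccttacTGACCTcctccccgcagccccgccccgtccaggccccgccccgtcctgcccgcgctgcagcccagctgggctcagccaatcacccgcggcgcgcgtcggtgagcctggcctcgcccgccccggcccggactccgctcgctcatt
The Fabp1 window held AGGCCATAGGTCA, a match to the loose repeat that begins 67 bases before the start, at position -67, and overlaps a single site. A second single site lay at position -9. Cpt1a held 1 single site at position -94, Cd36 held 1 at position -228, and the windows of Pdk4, Fabp2, Slc27a4, Acsl5 and Ppara held no match. Of 32851 promoters of this length, 16.3% held AGGTCA, 0.381% held the loose repeat and 0.0396% held the exact repeat AGGTCANAGGTCA, which none of the 8 windows contained. A match describes letters in the window and not a site in use.

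The libraries held between 15963086 and 17903886 expected counts. Defining markers of the distal ileum (Slc10a2, Fabp6, Slc51a, Slc51b, Fgf15 and Cubn) were all listed, with a summed level of 5251 to 11836 FPKM (fragments scaled to the length of the transcript and the size of the library). Hepatocyte markers summed to at most 2.07 FPKM and pancreatic acinar markers to at most 0.08, with Prss1, Pnlip and Cela2a at 0 throughout. One library stood apart, that of medium mDP PAC mouse 3, in which 6 enterocyte markers (Vil1, Alpi, Epcam, Krt20, Cdhr5 and Ezr) summed to 2753 FPKM against 3692 to 4690 in the other 14. The FPKM of that library also summed to 677075, against 502110 to 573980 in the others. Single genes were not raised to this extent relative to their counts. Acaa2 had 2566 expected counts in that mouse and in medium mDP PAC mouse 5, at 105 and 102 FPKM. These libraries held 17270988 and 17662205 expected counts, and the cause of the larger sum was not tested. Results that rest on this mouse are given with and without it. Between groups, the median difference in log2 FPKM over the genes tested was 0.09 for medium mDP PAC against water, 0.04 for low mDP PAC against water and 0.04 for medium against low mDP PAC, which is part of every FPKM difference between these groups.

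With water alone, the 9 genes spanned a wide range of levels on the FPKM scale. Fabp2 was highest with a mean of 5046 FPKM, and its lowest mouse was above every mouse for every other gene of the 9. Next came Acsl5, Fabp1 and Slc27a4, with 305, 212 and 181 FPKM. Neighbours in this order overlapped in their range over the mice. Acaa2 (65.7 FPKM) and Cpt1a (51.3 FPKM) overlapped each other and lay below these. Cd36, Ppara and Pdk4 formed the lowest group with 16.4, 12.1 and 7.94 FPKM, and these 3 also overlapped in order. In the water group the highest mouse exceeded the lowest 4.97 times for Pdk4, 3.56 times for Cd36 and 2.55 times for Fabp1, but only 1.23 times for Slc27a4 and 1.27 times for Ppara.

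**Figure D1:**
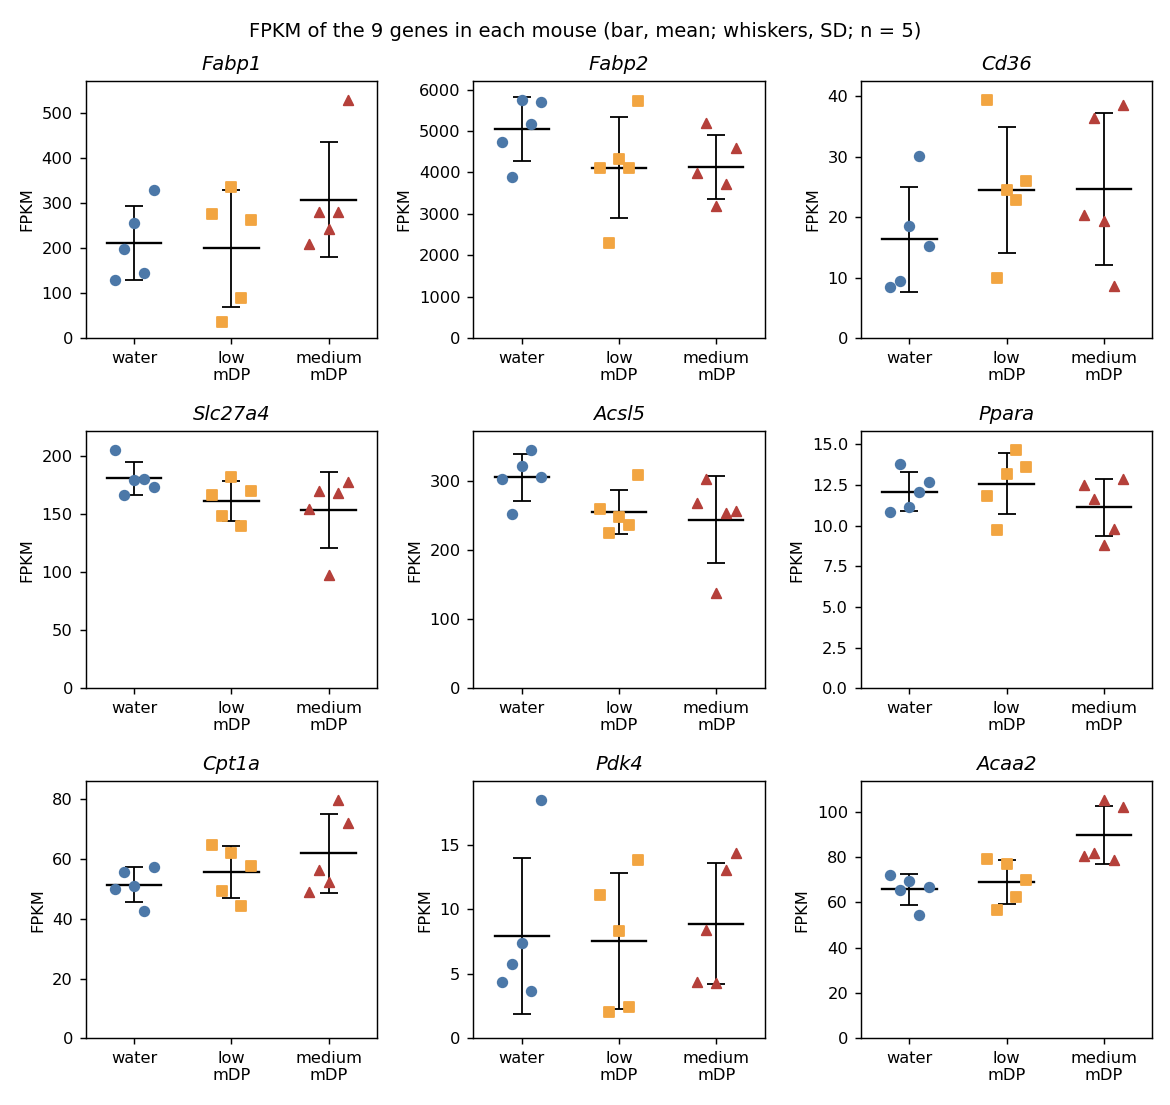
Levels of the 9 genes in FPKM (vertical axis, from 0) in each mouse with water (circles), low mDP PAC (squares) and medium mDP PAC (triangles). Horizontal bars are group means and whiskers the SD (n = 5). Acaa2 is the only panel in which the 5 medium mDP PAC mice, from 78.9 to 105 FPKM, all lie above the 5 water mice, which reach 72.2.

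The first comparison asked whether medium mDP PAC altered the expression of these genes relative to water. Acaa2 stood highest in mice given medium mDP PAC, 1.27 times its level with water, while Acsl5 and Slc27a4 were lower, at 0.749 and 0.796 times. None of the 9 genes passed an adjusted p of 0.05 in edgeR, against a background of 0.0139% of all genes tested (2 of 14386). At an unadjusted p under 0.05 there were 3 of 9, 1 higher and 2 lower, beside 14.8% of all genes (4.37% higher and 10.4% lower). DESeq2 called 1 of the 9, Acaa2, with an adjusted p of 0.0493 under its own filter, which called 1.77% of the 7692 genes it kept (136 genes). The value was 0.0693 when all genes were kept in the adjustment, which left none of the 9 beside 0.779% of all genes.

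Acaa2 encodes a mitochondrial 3-ketoacyl-CoA thiolase, an enzyme of the last step of a round of beta oxidation. Its levels with water were 72.2, 65.4, 69.4, 54.5 and 67.0 FPKM in mice 1 to 5. With low mDP PAC they were 79.3, 56.6, 77.0, 62.4 and 70.1 FPKM. With medium mDP PAC they were 80.4, 81.9, 105, 78.9 and 102 FPKM. Every medium mDP PAC mouse was above every water mouse, as for 3.99% of all genes tested (for 0.646% every one was below, which held for none of the 9), and 4 of 5 were above every low mDP PAC mouse. Medium mDP PAC differed from water by a log2 fold change of 0.35 (SE 0.11, 95% interval 0.12 to 0.58), with an unadjusted p of 0.00541 and an adjusted p of 0.214 in edgeR. The exact permutation test of log2 FPKM (two-sided) gave p = 0.00794, the smallest that 5 mice against 5 allow. Mouse 3 had the highest value, and without it the log2 fold change was 0.33 (adjusted p = 0.334, edgeR). With the FPKM of every mouse scaled to the same total, a setting chosen after the data were seen, mouse 3 had 86.6 and the groups still did not overlap (77.9 to 103 against 54.5 to 77.2, exact permutation p = 0.00794), as for 0.876% of all genes, while the difference of mean log2 FPKM went from 0.44 to 0.34. Of the genes whose levels were most like those of Acaa2 across the mice, 2 encode enzymes that prepare unsaturated fatty acids for oxidation, Eci2 (r = 0.900) and Ech1 (r = 0.871), and Radil stood between them with r = 0.892 at a mean of 0.195 FPKM. With the mean of endothelium markers Acaa2 had r = 0.725 (permutation p = 0.0116, adjusted 0.157 over 81 relations). With macrophage markers r was 0.708 (permutation p = 0.0039, adjusted 0.079), and with the enterocyte markers -0.22. Without medium mDP PAC mouse 3 these were 0.672, 0.655 and 0.204. The part of these cell types in the Acaa2 difference was not tested.

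Slc27a4 and Acsl5 act next to each other in the pathway. Slc27a4 (FATP4, chr2:29802634-29817522 in GRCm38) is a fatty acid transporter with acyl-CoA synthetase activity, and its levels with water were 205, 167, 179, 180.2 and 173 FPKM. With low mDP PAC they were 167, 148, 182, 139.6 and 169.99 FPKM, and with medium mDP PAC 155, 169.9, 97.7, 169 and 178 FPKM. The groups overlapped, and the lowest value belonged to medium mDP PAC mouse 3. For medium mDP PAC against water the log2 fold change was -0.33 (SE 0.14, unadjusted p = 0.0349, adjusted p = 0.304, edgeR) and without that mouse -0.16 (unadjusted p = 0.0810, edgeR). In bulk tissue fewer cells of a type and less RNA per cell cannot be told apart.

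Acsl5 (chr19:55251938-55297720), the main long-chain acyl-CoA synthetase of the intestinal mucosa, had levels with water of 303, 252, 322, 344 and 305 FPKM. They were 259, 224, 248, 236 and 308 FPKM with low mDP PAC and 269, 303, 137, 254 and 256 FPKM with medium mDP PAC. Again the groups overlapped and mouse 3 of medium mDP PAC was lowest. Against water, medium mDP PAC gave a log2 fold change of -0.42 (SE 0.17, unadjusted p = 0.0250, adjusted p = 0.281, edgeR), which without mouse 3 became -0.23 (unadjusted p = 0.0435, edgeR). The exact permutation test of log2 FPKM gave p = 0.0952 for Acsl5 and p = 0.0873 for Slc27a4 with all mice, and with FPKM scaled to the same total per mouse it gave p = 0.0476 and p = 0.0397.

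Enterocyte markers moved with both genes. Their summed level was 3930 to 4690 FPKM with water, 3779 to 4043 with low mDP PAC and 2753 to 3994 with medium mDP PAC, and all 6 were listed in every group. Over the 15 mice, with group means subtracted, log2 FPKM of Slc27a4 followed the mean log2 FPKM of the enterocyte markers with Pearson's r = 0.947 (permutation p = 6e-05, adjusted 0.00189 over 81 relations between the genes and marker measures) and Spearman's rho = 0.843 (permutation p = 9e-05, adjusted 0.00364). Leaving out the 2 mice farthest from the median gave r = 0.836, and leaving out medium mDP PAC mouse 3 gave r = 0.848. For Acsl5 the relation was r = 0.874 (permutation p = 0.0166, adjusted 0.193) and rho = 0.639 (permutation p = 0.0417, adjusted 0.375), and r fell to 0.484 without the 2 farthest mice, so that it rested on those mice. These relations were noticed in the same data, and the part of the enterocyte share in the group differences was not tested. The genes most like Slc27a4 across the mice were Ap2a2 (r = 0.957), Gatsl2 (r = 0.942) and Slc6a19 (r = 0.940), the last being the neutral amino acid transporter of the brush border. Those most like Acsl5 included Cyp4f14 (r = 0.964) and Sec24d (r = 0.957).

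Cd36 (chr5:17781690-17888801), a membrane receptor for long-chain fatty acids that is found on enterocytes and also on adipocytes, endothelium and macrophages, varied widely within each group. Its levels were 8.44, 9.49, 18.5, 30.1 and 15.2 FPKM with water. With low mDP PAC they were 39.4, 9.96, 24.5, 22.8 and 26.1 FPKM, and with medium mDP PAC 20.4, 36.4, 19.4, 8.64 and 38.5 FPKM. All 3 groups overlapped. The log2 fold change was 0.50 (SE 0.41, adjusted p = 0.557, edgeR) for medium mDP PAC and 0.52 (SE 0.41, adjusted p = 0.976, edgeR) for low mDP PAC, both against the same water mice. The intervals of these differences, -0.38 to 1.37 and -0.35 to 1.40, include a doubling. The first ranged from 0.28 without medium mDP PAC mouse 5 to 0.84 without water mouse 4, and the second from 0.30 without low mDP PAC mouse 1 to 0.87 without water mouse 4.

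The level of Cd36 followed adipocyte markers closely. The 8 markers (Adipoq, Plin1, Cidec, Lep, Cfd, Retn, Fabp4 and Lpl) were all listed, and summed to 147 to 654 FPKM with water, 194 to 825 with low mDP PAC and 112 to 1047 with medium mDP PAC. Across the 15 mice, Pearson's r of Cd36 with the mean log2 FPKM of these markers was 0.975 (permutation p = 4e-05, adjusted 0.00189 over all 81) and Spearman's rank correlation rho was 0.950 (permutation p = 5e-05, adjusted 0.00364). Without the 2 mice farthest from the median r was 0.965. The gene most like Cd36 of all those tested was Lpl (r = 0.984), lipoprotein lipase, which is itself one of the 8 markers. Amy1 (r = 0.981) and Apol6 (r = 0.977) came next, and Amy1 shares reads with near-identical amylase genes, so its level is uncertain. The part of adipose tissue in the differences of Cd36 between groups was not tested.

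**Figure D2:**
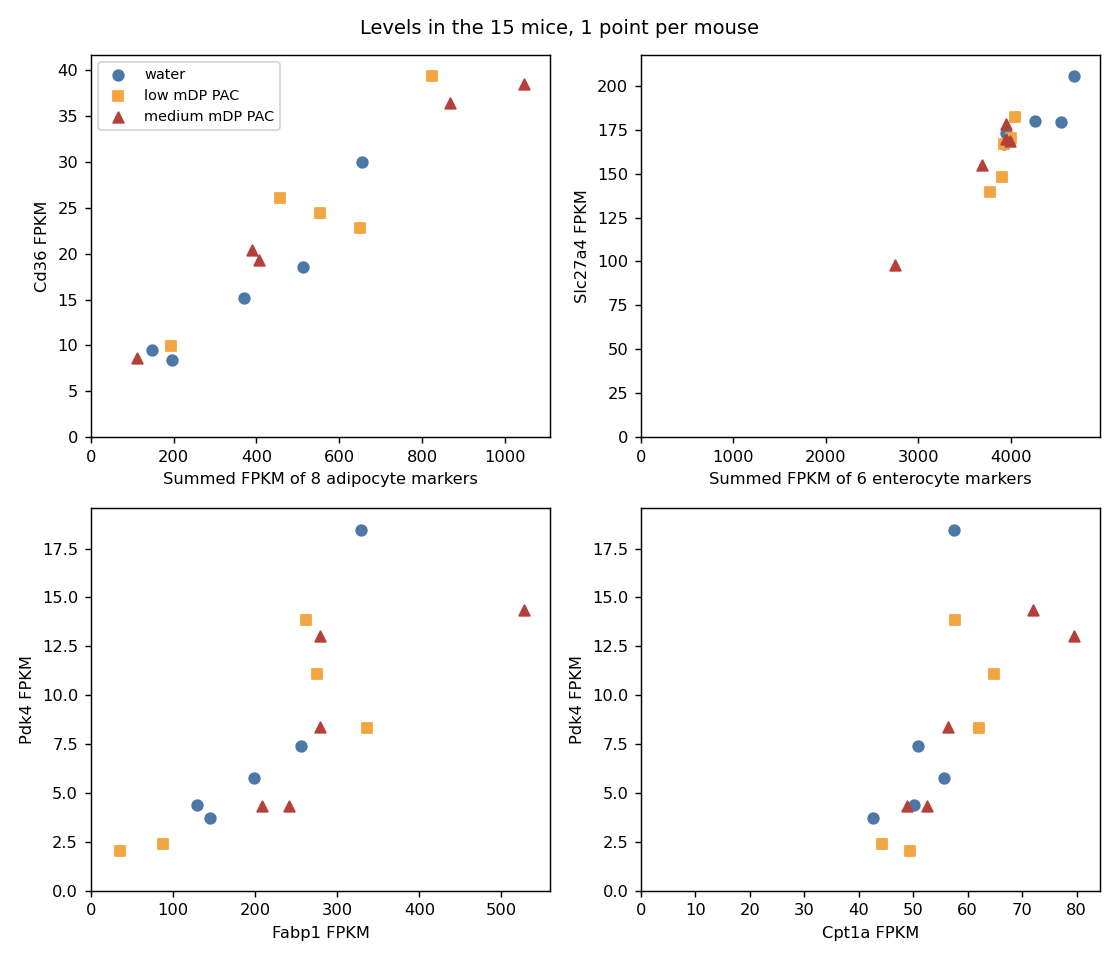
Each point is 1 of the 15 mice, with levels in FPKM on both axes (from 0) and groups shown by colour and shape. Cd36 rises with the adipocyte markers (r = 0.975), Slc27a4 with the enterocyte markers (r = 0.947), and Pdk4 with Fabp1 (r = 0.869) and Cpt1a (r = 0.818), each r on log2 values (the mean over the markers of a list) with group means subtracted. Medium mDP PAC mouse 3 is the lone point at the lowest Slc27a4.

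The gut makes 2 of these fatty acid binding proteins, and with medium mDP PAC their means lay on opposite sides of the water mean. Fabp2 (I-FABP, chr3:122895072-122899506), the intestinal form, had levels with water of 4734, 3886, 5746, 5167 and 5696 FPKM. These were 4106, 2294, 4318, 4109 and 5728 FPKM with low mDP PAC and 3993, 5185, 3201, 3720 and 4580 FPKM with medium mDP PAC. The means of both PAC groups, 4111 ± 1221 and 4136 ± 769 (SD, n = 5), were below the water mean of 5046 ± 770 (SD, n = 5), and the groups overlapped. The log2 fold change was -0.38 (SE 0.20, adjusted p = 0.375, edgeR) for medium mDP PAC and -0.35 (SE 0.20, adjusted p = 0.976, edgeR) for low mDP PAC. Without medium mDP PAC mouse 3 the value for medium mDP PAC was -0.26 (adjusted p = 0.623, edgeR).

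Fabp2 moved with markers of the proximal small intestine (Gata4, Onecut2, Lct, Slc2a2, Slc5a1 and Slc11a2), of which Gata4 is also a gene that the study picked from these libraries. All 6 were listed, and their sum was 450 to 673 FPKM with water, 350 to 470 with low mDP PAC and 208 to 495 with medium mDP PAC. Most of this sum was Slc5a1, with a mean of 458 FPKM with water. Onecut2 was barely read, with 2 to 15 expected counts, so that 5 of the 6 were tested. Pearson's r of Fabp2 with the mean log2 FPKM of these markers over the 15 mice was 0.883 (permutation p = 7e-05, adjusted 0.00189) and Spearman's rho was 0.825 (permutation p = 0.00047, adjusted 0.0127). Without the 2 farthest mice r was 0.821. Lct, the lactase of the proximal villus and one of these markers, was the gene most like Fabp2 (r = 0.944), followed by Ephx2 (r = 0.936), a soluble epoxide hydrolase, and Slc5a4b (r = 0.920), whose close relative Slc5a4a may share its reads. The position of the sampled segment along the intestine was not tested as a part of the Fabp2 difference.

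Fabp1 (L-FABP, chr6:71199827-71205023), the liver form that the gut also makes, is a target of PPARα. Its levels were 129, 199, 256, 145 and 329 FPKM with water. With low mDP PAC they were 275, 36.2, 336, 87.9 and 262 FPKM, and with medium mDP PAC 208, 279, 242, 279 and 528 FPKM. The low mDP PAC group held both the lowest and the second highest of the 15 values, a 9.28-fold range, and the groups overlapped. Medium mDP PAC differed from water by a log2 fold change of 0.46 (SE 0.45, 95% interval -0.50 to 1.41, adjusted p = 0.631, edgeR). Without medium mDP PAC mouse 5 it was 0.17. Expressed as a percentage of Fabp2 in the same mouse, Fabp1 was 2.73 to 5.78% with water, 1.58 to 7.78% with low mDP PAC and 5.21 to 11.5% with medium mDP PAC, so that these ranges also overlapped. From mouse to mouse within groups the r of Fabp1 with Fabp2 was 0.711 (permutation p = 0.0204, adjusted 0.0949 over the 36 pairs of the 9 genes) and rho was 0.557 (permutation p = 0.0428, adjusted 0.160), and r was 0.480 without the 2 farthest mice.

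Ppara itself (chr15:85734983-85802819) was among the steadiest of the 9 genes. With water its levels were 10.8, 13.8, 11.1, 12.1 and 12.7 FPKM. They were 11.8, 9.71, 13.1, 14.6 and 13.6 FPKM with low mDP PAC, and 12.5, 11.7, 8.78, 9.78 and 12.8 FPKM with medium mDP PAC. The groups overlapped, with mouse 3 of medium mDP PAC lowest. For medium mDP PAC against water the log2 fold change was -0.22 (SE 0.11, adjusted p = 0.380, edgeR), and -0.10 without that mouse (adjusted p = 0.720, edgeR). For low mDP PAC it was -0.00 (95% interval -0.24 to 0.24). The genes most like Ppara were Star (r = 0.883), Flywch1 (r = 0.881) and Sec22c (r = 0.863). Pdk4, Cpt1a and Fabp1, its known targets, were not among them, and over the 15 mice r of Ppara with Pdk4 was 0.280 (permutation p = 0.373, adjusted 0.497 over the 36 pairs of the 9 genes; rho = 0.154, permutation p = 0.628, adjusted 0.707), falling to -0.15 without the 2 farthest mice.

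Cpt1a (chr19:3322334-3385733), the carnitine palmitoyltransferase that commits fatty acids to mitochondria, had levels with water of 50.1, 55.7, 50.8, 42.6 and 57.5 FPKM. With low mDP PAC these were 64.8, 49.4, 62.1, 44.2 and 57.8 FPKM, and with medium mDP PAC 48.8, 56.4, 52.5, 79.6 and 72.0 FPKM. Medium mDP PAC mice 4 and 5 were the highest of all 15, and the other 3 lay within the range of the water mice. Against water, medium mDP PAC gave a log2 fold change of 0.18 (SE 0.14, adjusted p = 0.542, edgeR), and 0.06 without medium mDP PAC mouse 4. Cpt2, the inner membrane partner of Cpt1a in the same shuttle, was the gene whose levels were most like those of Cpt1a among all tested (r = 0.961), ahead of Ano10 (r = 0.932) and Atp6v0e2 (r = 0.914).

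Pdk4 (chr6:5483351-5496309), a kinase that inhibits the pyruvate dehydrogenase complex and so spares glucose, had the widest spread of the 9 genes in the water group. The levels there were 4.37, 5.75, 7.41, 3.71 and 18.4 FPKM. With low mDP PAC they were 11.1, 2.02, 8.32, 2.41 and 13.9 FPKM, and with medium mDP PAC 4.35, 8.40, 4.33, 13.0 and 14.4 FPKM. The highest of all mice was a water mouse, and the groups overlapped. Medium mDP PAC differed from water by a log2 fold change of 0.10 (SE 0.54, 95% interval -1.05 to 1.25, adjusted p = 0.946, edgeR), which rose to 0.64 without water mouse 5.

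Pdk4, Fabp1 and Cpt1a rose and fell together from mouse to mouse within the groups. For Pdk4 with Fabp1, Pearson's r was 0.869 (permutation p = 0.00013, adjusted 0.00468 over the 36 pairs) and Spearman's rho was 0.846 (permutation p = 0.00084, adjusted 0.0260). Without the 2 farthest mice r was 0.913. For Pdk4 with Cpt1a, r was 0.818 (permutation p = 0.00090, adjusted 0.0108) and rho was 0.811 (permutation p = 0.00173, adjusted 0.0260), and r was 0.809 without the 2 farthest mice. The relation of Fabp1 with Cpt1a was weaker, with r = 0.643 (permutation p = 0.00952, adjusted 0.0857) and rho = 0.754 (permutation p = 0.00217, adjusted 0.0260), and r = 0.706 without the 2 farthest mice. Low mDP PAC mice 2 and 4, which had the lowest 2 values of Fabp1, also had the lowest 2 of Pdk4. Angptl4, a secreted inhibitor of lipoprotein lipase and a PPARα target, was the gene most like Fabp1 (r = 0.924), and Retsat (r = 0.894), a retinol saturase also counted among PPARα targets, came after Vwa1 (r = 0.917). Those most like Pdk4 were Ddc (r = 0.933), Scarb2 (r = 0.916) and Il1rl2 (r = 0.910). The promoters shown above hold a loose repeat in Fabp1, a single site in Cpt1a and no match in Pdk4.

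The only other pair of the 36 with an adjusted p under 0.05 was Fabp2 with Acsl5, with r = 0.662 (permutation p = 0.00086, adjusted 0.0108) but rho = 0.621 (permutation p = 0.0175, adjusted 0.126), and r = 0.743 without the 2 farthest mice. Time of day was approached through Dbp, an output gene of the circadian clock, whose closest relation was with Cpt1a (r = -0.62, permutation p = 0.0418, adjusted 0.282; rho = -0.55, permutation p = 0.0741, adjusted 0.546). Without the 2 farthest mice this r was -0.38, and without medium mDP PAC mouse 3 it was -0.75.

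The second comparison asked the same of low mDP PAC, against the same water mice. In edgeR 0 of the 9 genes had an adjusted p under 0.05, as had 0% of all genes tested, and 0 of the 9 had an unadjusted p under 0.05, beside 3.61% of all genes (1.4% higher and 2.21% lower). DESeq2 also called 0 of the 9, and 0.0139% of all genes. The FPKM of the groups overlapped for all 9, whereas 0.494% of all genes were higher and 0.111% lower without overlap. The largest differences by p were those of Acsl5 (log2 fold change -0.32, SE 0.17, unadjusted p = 0.0779, edgeR) and Fabp2, followed by Slc27a4 (-0.22, SE 0.14, unadjusted p = 0.137, edgeR). With medium mDP PAC mouse 3 left out of the shared fit, and so out of the estimate of the spread, Acsl5 had an unadjusted p of 0.00925 and Slc27a4 of 0.0298 in edgeR, with adjusted p-values of 0.891. For Fabp1 the log2 fold change was -0.13 (95% interval -1.09 to 0.83), for Pdk4 -0.12 (-1.27 to 1.03), for Cpt1a 0.06 (-0.24 to 0.36) and for Acaa2 0.01 (-0.22 to 0.25). The intervals of Fabp1 and Pdk4 were far wider than those of Cpt1a and Acaa2.

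The third comparison set the polymers against each other at the same dose and times, the fractions differing in mean polymer length. Of the 9 genes 0 had an adjusted p under 0.05 in edgeR, as had 0% of all genes, and 1 had an unadjusted p under 0.05, beside 3.89% of all genes (1.84% higher and 2.05% lower). DESeq2 called 0 of the 9 and 0% of all genes. For all 9 the FPKM of the groups overlapped, whereas 0.646% of all genes were higher and 0.0904% lower without overlap. The gene with an unadjusted p under 0.05 was Acaa2, higher with medium than with low mDP PAC by 0.34 on the log2 scale (SE 0.11, 95% interval 0.11 to 0.57, unadjusted p = 0.00713, adjusted p = 0.896, edgeR). It ranked 26 of the 14386 genes by p, and the exact permutation test of log2 FPKM gave p = 0.0159. Without medium mDP PAC mouse 3 the difference was 0.29 (unadjusted p = 0.0153, edgeR). Ppara was lower with medium mDP PAC by -0.21 (SE 0.11, unadjusted p = 0.0761, edgeR), and by -0.12 without medium mDP PAC mouse 3 (unadjusted p = 0.271, edgeR). For Fabp1 the difference was 0.59 (95% interval -0.37 to 1.54), and it was 0.30 without medium mDP PAC mouse 5 and 0.87 without low mDP PAC mouse 3. For Pdk4 it was 0.22 (-0.93 to 1.36), for Cd36 -0.02 (-0.89 to 0.84) and for Fabp2 -0.03 (-0.44 to 0.39). Slc27a4 (-0.11, interval -0.41 to 0.20), Acsl5 (-0.10, interval -0.46 to 0.26) and Cpt1a (0.12, interval -0.18 to 0.42) differed by less than their intervals.

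**Figure D3:**
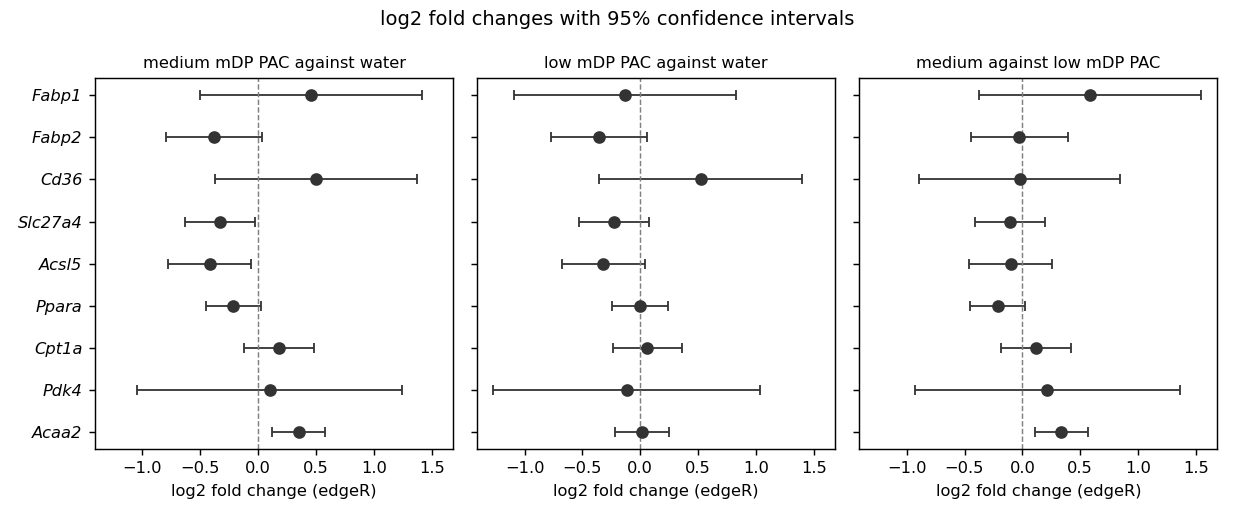
Log2 fold changes of the 9 genes in the 3 comparisons (horizontal axis, edgeR) with their 95% confidence intervals as whiskers. For Acaa2 the interval lies above 0 in both comparisons that involve medium mDP PAC (0.12 to 0.58 and 0.11 to 0.57) and spans 0 for low mDP PAC against water, while the intervals of Fabp1, Cd36 and Pdk4 are the widest. Intervals are not adjusted for the number of genes.

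The wider pathway was followed through 93 genes in 8 lists, of which 88 were tested and 84 are not among the 9. In edgeR 0 of 88 had an adjusted p under 0.05 in any of the 3 comparisons, and DESeq2 called 3 with medium mDP PAC against water, among them Acaa2 and Acsm3 (adjusted p = 0.0412). When all genes were kept in the adjustment these had 0.0693 and 0.0568, and 1 pathway gene passed, the barely read Cyp4a10 (adjusted p = 0.0359, DESeq2), for which DESeq2 gave no adjusted p under its own filter. At an unadjusted p under 0.05, 6 were higher and 14 lower with medium mDP PAC against water (22.7% of 88, beside 14.8% of all genes), 2 were higher and 3 lower with low mDP PAC against water (5.68%, beside 3.61%), and 5 were higher and 0 lower with medium than with low mDP PAC (5.68%, beside 3.89%). Without medium mDP PAC mouse 3, which was examined after the data were seen, 9 were higher and 4 lower with medium mDP PAC against water. Of all genes 5.25% were higher and 5.62% lower, so that the excess of lower genes was absent from this fit. In the same fit 3 were higher and 0 lower with medium than with low mDP PAC, beside 0.899% and 0.927% of all genes. Leaving out water mouse 3 or water mouse 1 also brought the count for medium mDP PAC against water from 20 to 13 and to 14. The shares of all genes were then 11.1% and 10.5%, and those fits were not split by direction. The median log2 fold change of the 88 for medium mDP PAC against water was 0.04 with all mice, beside 0.00 over all genes tested. Without medium mDP PAC mouse 3 it was 0.08 beside 0.01. Above 0 were 53 of the 88 with all mice, beside 7261 of 14386 genes. Without that mouse there were 59, beside 7798 of 14455 genes. Of the 5 genes not tested, Cyp4a14 was not listed in any mouse and Cyp4a31, Fabp3, Fgf21 and Rxrg had too few reads.

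By list, for medium mDP PAC against water, the counts at an unadjusted p under 0.05 with all mice stand beside 4.37% of all genes higher and 10.4% lower, and no list was tested as a group. Counts without medium mDP PAC mouse 3 stand beside 5.25% of all genes higher and 5.62% lower. The receptors and cofactors had a median of -0.14, with 0 of 12 higher and 4 lower, and without medium mDP PAC mouse 3 a median of -0.04, with 0 higher and 1 lower. The enterocyte markers moved alongside, with 5 of 6 lower and a median of -0.36, or 3 of 6 and -0.19 without that mouse, and their part in these counts was not tested. Mitochondrial beta oxidation had a median of 0.08, with 3 of 18 higher and 2 lower (0.10, 3 and 1 without mouse 3). In peroxisomal beta oxidation the median was 0.02, with 0 of 17 higher and 4 lower beside the same 10.4% of all genes lower (1 higher and 1 lower without mouse 3), and in the carnitine shuttle it was -0.04, with 0 of 8 higher and 1 lower (0.05, 0 and 0 without mouse 3). Uptake and binding (median 0.27 over 9 genes) and the other PPARα targets (0.19 over 12 genes) each had 1 higher and 1 lower, as had the acyl-CoA synthetases (0.01 over 8 genes). Ketone body synthesis (0.03 over 4 genes) had 0. Without mouse 3 the median of uptake and binding was 0.31, with 1 higher and 0 lower. That of the other PPARα targets was 0.31, with 2 higher, 0 lower and 11 of 12 above 0 (10 of 12 with all mice). The acyl-CoA synthetases then had a median of 0.03, with 1 higher and 1 lower, and ketone body synthesis one of 0.01, with 1 higher and 0 lower.

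The pathway genes with the smallest p in each direction show the size of these differences. Acsm3, a medium-chain acyl-CoA synthetase, had 9.12 ± 1.33 FPKM with water, 12.1 ± 1.49 in the low mDP PAC group and 13.5 ± 2.95 in the medium mDP PAC group (SD, n = 5), a log2 fold change of 0.47 for medium mDP PAC against water (SE 0.13, adjusted p = 0.194, edgeR) and of 0.35 for low mDP PAC (adjusted p = 0.976). Dbi, the acyl-CoA binding protein, had 482 ± 60.8, 522 ± 76.1 and 659 ± 109 FPKM in the same order, with log2 fold changes of 0.35 (SE 0.12, adjusted p = 0.248, edgeR) and 0.06. By p, Acaa2 stood between Cyp4a10 and Dbi. Cyp4a10, a fatty acid hydroxylase and a classical PPARα target, was barely read, with 1 to 10 expected counts in the water mice, 0 to 54.0 with low mDP PAC and 10 to 93.0 with medium mDP PAC. Its fitted log2 fold change against water was 3.20 (SE 0.90, adjusted p = 0.194, edgeR) for medium mDP PAC, the groups overlapped, and near-identical Cyp4a genes make its counts uncertain.

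Among the lower genes, Ncoa1, a coactivator of nuclear receptors, differed between medium mDP PAC and water by -0.21 on the log2 scale (SE 0.07, adjusted p = 0.215, edgeR), Acad10, an acyl-CoA dehydrogenase, by -0.25 (SE 0.09, adjusted p = 0.268, edgeR) and Cpt1b, the muscle form of Cpt1a, by -0.39 (SE 0.15, adjusted p = 0.273, edgeR) at 2.55 FPKM with water. Without medium mDP PAC mouse 3 the carnitine shuttle, the list that holds Cpt1b, had 0 genes lower at an unadjusted p under 0.05. The 5 pathway genes higher with medium than with low mDP PAC at an unadjusted p under 0.05 were Acaa2, Dbi, Eci2, Ech1 and Etfb. Without medium mDP PAC mouse 3 there were 3, with 2 in mitochondrial and 1 in peroxisomal beta oxidation. Uptake and binding, the list that holds Dbi, then had 0. Etfb, named after its values were seen, is a subunit of the electron transfer flavoprotein that takes electrons from beta oxidation, and differed by 0.27 (SE 0.11, adjusted p = 0.896, edgeR).

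**Figure D4:**
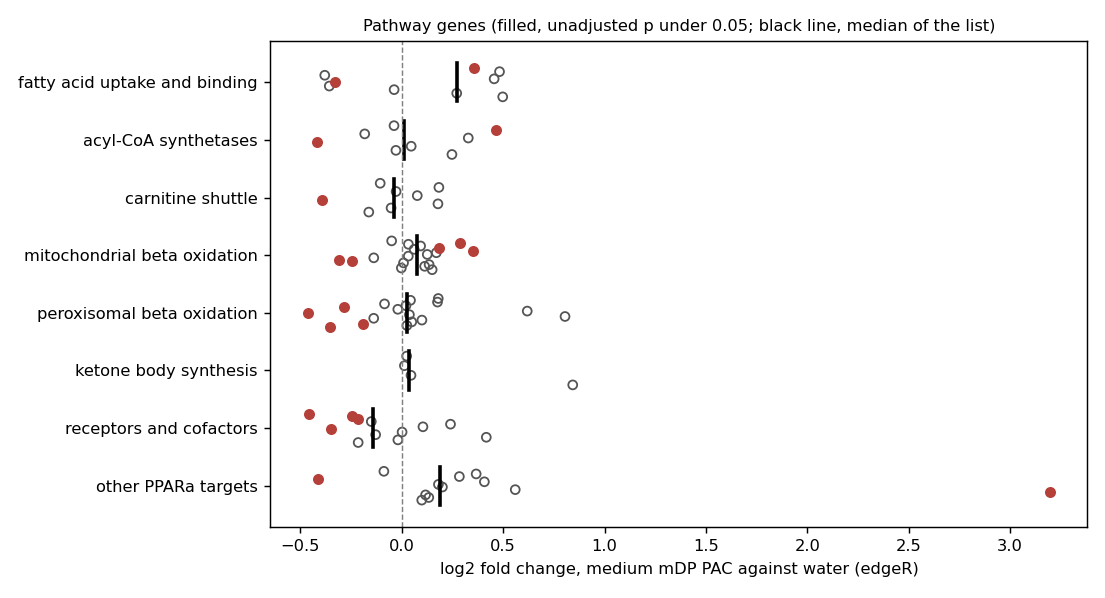
Log2 fold changes of medium mDP PAC against water (horizontal axis, edgeR) for the tested genes of the 8 pathway lists, 1 point per gene. Filled points have an unadjusted p under 0.05 and black lines are list medians. The 4 filled points of the receptors and cofactors all lie below 0 (without medium mDP PAC mouse 3 that list had 1 such gene), and the point far to the right is Cyp4a10 at 3.20.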

How the data were processed

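Ileal RNA of 15 mice, 5 per group, was sequenced as paired-end reads on a BGISEQ-500. The paper names SOAPnuke for read cleaning, Bowtie2 for mapping to mm10 and NOIseq for testing, whereas the submitters' processing notes name HISAT and DESeq2. The counting tool is not given in the sources used here. The authors deposited, per gene and mouse, an expected count (not normalized) and an FPKM value (scaled by gene length and library). No listed FPKM was under 0.01, and genes missing from a mouse's file were taken as 0.

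Expected counts were rounded and tested in edgeR 4.0.16 (TMM, filterByExpr, quasi-likelihood, R 4.3.3) in 1 model of the 3 groups over 14386 genes. All adjusted p-values are Benjamini-Hochberg values over these genes, at a threshold of 0.05. DESeq2 1.42.0, RLE and upper-quartile scaling, no filter, a replicate block, a fit of 2 groups only and leaving out each mouse were alternatives. Single genes were also compared by two-sided exact permutation of log2(FPKM + 0.1), with pseudocounts of 0.01 and 1, and FPKM scaled to an equal total per mouse (added after the data were seen), as alternatives. Such differences understate the change of low genes. Relations across mice used log2(FPKM + 0.1) minus the group mean and 100000 permutations within groups, whose smallest possible p is 1e-05 (scipy 1.17.1). Scripts were tested on simulated data.

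The named genes are the 9 genes, the 4 pathway genes of smallest p per direction with medium mDP PAC against water, any pathway gene passing the threshold in edgeR, and the 3 genes most like each of the 9 by r. Some genes that meet this rule are not reported here. The genes, the 8 pathway lists and the 11 marker lists were chosen with earlier results of these data known. Of the marker lists whose sums are not given above, endothelium summed to 55.9 to 90.1 FPKM over the mice, macrophage to 98.9 to 173, B cell to 5.50 to 214, smooth muscle to 261 to 1068 and the circadian clock to 114 to 240. Coordinates are from GENCODE on GRCm38. The depth, between 15963086 and 17903886 counts per mouse, left the spread between mice as the main error for all 9 genes. No pair of libraries shared the count of more than 1.72% of genes.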

Additional observations from a re-analysis of the deposited data

Results flagged for a closer look

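In groups of 5, a value was singled out when its gap to the nearest other mouse was above Dixon's critical share of the range of the group. This was so for 2 of the 27 sets of 5 values (9 genes in 3 groups). Chance alone does so in about 5% of such sets. The level of Fabp1 in medium mDP PAC mouse 5 was 528 FPKM against 208 to 279 FPKM in the other 4 mice, a gap of 0.777 of the range. The level of Pdk4 in water mouse 5 was 18.4 FPKM against 3.71 to 7.41 FPKM in the other 4, a gap of 0.749 of the range.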

How the results depend on the processing

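With edgeR, the count of the 9 genes past an adjusted p of 0.05 stayed at 0 in each comparison under every alternative run, and so did the count of pathway genes. With DESeq2, 1 of the 9 genes (Acaa2) and 3 pathway genes passed for medium mDP PAC against water, beside 1.77% of all genes under the same filter. The cause was not tested. The number of the 9 genes with an unadjusted p under 0.05 ranged from 1 to 4 for medium mDP PAC against water, from 0 to 2 for low mDP PAC against water and from 1 to 2 for medium against low mDP PAC. For the pathway genes it ranged from 13 to 22 (20 as reported), from 3 to 8 (5 as reported) and from 2 to 9 (5 as reported) in the same order, while the share of all genes ranged over the same fits from 10.5% to 17.0%, from 2.03% to 5.56% and from 1.83% to 6.82%. Scaling FPKM to the same total per mouse, chosen after the data were seen, moved the difference of mean log2 FPKM of Fabp2 for medium against low mDP PAC from 0.0477 to -0.0335. Whether the mouse numbers pair the animals was not settled. Same-numbered mice of medium mDP PAC and water correlated between -0.22 and 0.45 in their deviations from the group means. Their mean r was 0.149, against -0.0377 for other pairs. For low mDP PAC and water it was 0.123 against -0.0307, and for medium and low mDP PAC -0.123 against 0.0316. With a replicate block the counts past the adjusted threshold stayed at 0 of the 9 genes and 0 pathway genes. For medium mDP PAC against water the unadjusted p (edgeR) then became 0.0568 for Slc27a4 and 0.00188 for Acaa2. For medium against low mDP PAC the log2 fold change of Fabp2 became 0.0159 and that of Cd36 0.0164. Of the log2 fold changes, those that changed sign lay close to 0, and the cause was not tested. Ppara with low mDP PAC against water (-0.00) became 0.0141 with RLE scaling and 0.0141 with DESeq2, 0.0279 with upper-quartile scaling, 0.0183 without a filter and 0.0151 in a fit of 2 groups only. Upper-quartile scaling moved Fabp2 to 0.00322 and Cd36 to 0.00469 for medium against low mDP PAC.

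Leaving out 1 mouse at a time changed the sign of further log2 fold changes. For medium mDP PAC against water, Pdk4 ranged from -0.14 to 0.64. For low mDP PAC against water, Ppara ranged from -0.0575 to 0.0676, Acaa2 from -0.0454 to 0.0662, Fabp1 from -0.42 to 0.13 and Pdk4 from -0.45 to 0.42. For medium against low mDP PAC, Cd36 ranged from -0.24 to 0.20, Fabp2 from -0.17 to 0.12, Slc27a4 from -0.16 to 0.0344, Acsl5 from -0.20 to 0.0638, Cpt1a from -0.00166 to 0.20 and Pdk4 from -0.0217 to 0.55. The log2 fold change of Acaa2 ranged from 0.29 to 0.40 for medium mDP PAC against water (adjusted p from 0.166 to 0.372, edgeR) and from 0.28 to 0.38 for medium against low mDP PAC. On the log2 FPKM scale, the same exercise gave, for low mDP PAC against water, -0.69 to 0.11 for Fabp1, -0.00967 to 0.14 for Ppara and -0.51 to 0.17 for Pdk4, and for medium against low mDP PAC -0.15 to 0.18 for Fabp2, -0.34 to 0.28 for Cd36, -0.16 to 0.0612 for Slc27a4 and -0.20 to 0.0900 for Acsl5. Depth did not limit the 9 genes, whose lowest expected count in any mouse was 122 (Pdk4).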

Other observations

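Pparg, the PPAR receptor of adipocytes, was looked at after its values were seen. Its log2 fold change for medium mDP PAC against water was 0.42 (SE 0.25, adjusted p = 0.426, edgeR), which did not pass the threshold.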
